A study of Homo sapiens with 8 samples.

Results

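Lysozyme and the proteins packed with it into myeloid primary granules were followed through 9 genes, LYZ, MPO, ELANE, PRTN3, AZU1, CTSG, CFD, CST7 and SRGN. They were picked by symbol from the 38551 genes with values, and each of the 9 had a row. RNA-sequencing counts came from MOLM-13, an established line of acute myeloid leukemia used here as a model of disease with a rearranged KMT2A gene. Of 8 libraries, 4 came from cells kept in the diluent DMSO and 4 from cells exposed to 100 nM PR-957 (ONX-0914), an inhibitor of the immunoproteasome subunit PSMB8, for 72 h in both groups. All 8 libraries come from 1 cell line, and no source used here states that replicates were separate cultures, so the p-values measure only the spread between these libraries, which may be technical.

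Primary (azurophil) granules are the first granules that a developing granulocyte or monocyte builds, at the promyelocyte stage. Their contents include the peroxidase myeloperoxidase (MPO) and the serine proteases neutrophil elastase (ELANE), proteinase 3 (PRTN3) and cathepsin G (CTSG), with the catalytically inactive relative azurocidin (AZU1), and the proteoglycan serglycin (SRGN) takes part in the storage of such proteins, elastase in particular. Lysozyme (LYZ), which cleaves bacterial cell wall peptidoglycan, is stored in these granules too, but monocytes and macrophages go on making it after they have stopped making the proteases. Complement factor D (CFD), a serine protease of the alternative complement pathway, and cystatin F (CST7), an inhibitor of lysosomal cysteine proteases, are also made by myeloid cells.

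LYZ rose more than any other member under PR-957. Its mean went from 153 ± 16.2 to 820.0 ± 104 CPM (counts scaled to a common library size by the trimmed mean of M-values, mean ± SD, n = 4), a 5.35-fold increase. MPO rose 2.90-fold, SRGN 1.90-fold and CTSG 1.32-fold. CST7 and ELANE did not pass the test at an adjusted p under 0.05. PRTN3 and CFD passed it from low counts, and AZU1 was too low to be tested. Thus 6 of the 8 tested members were called higher (23.1% of the 13179 genes tested were called higher) and 0 were called lower (23.5% of genes tested were called lower). By size, 3 members (LYZ, MPO and PRTN3) were at least 2-fold higher, where 2.63% of genes tested were. All PR-957 libraries lay above all DMSO libraries for 6 members, as they did for 20.8% of genes tested. These counts are a description only, since the members were chosen with results known and since PRTN3 and CFD passed the filter on low counts largely through the PR-957 libraries.

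**Figure D1:**
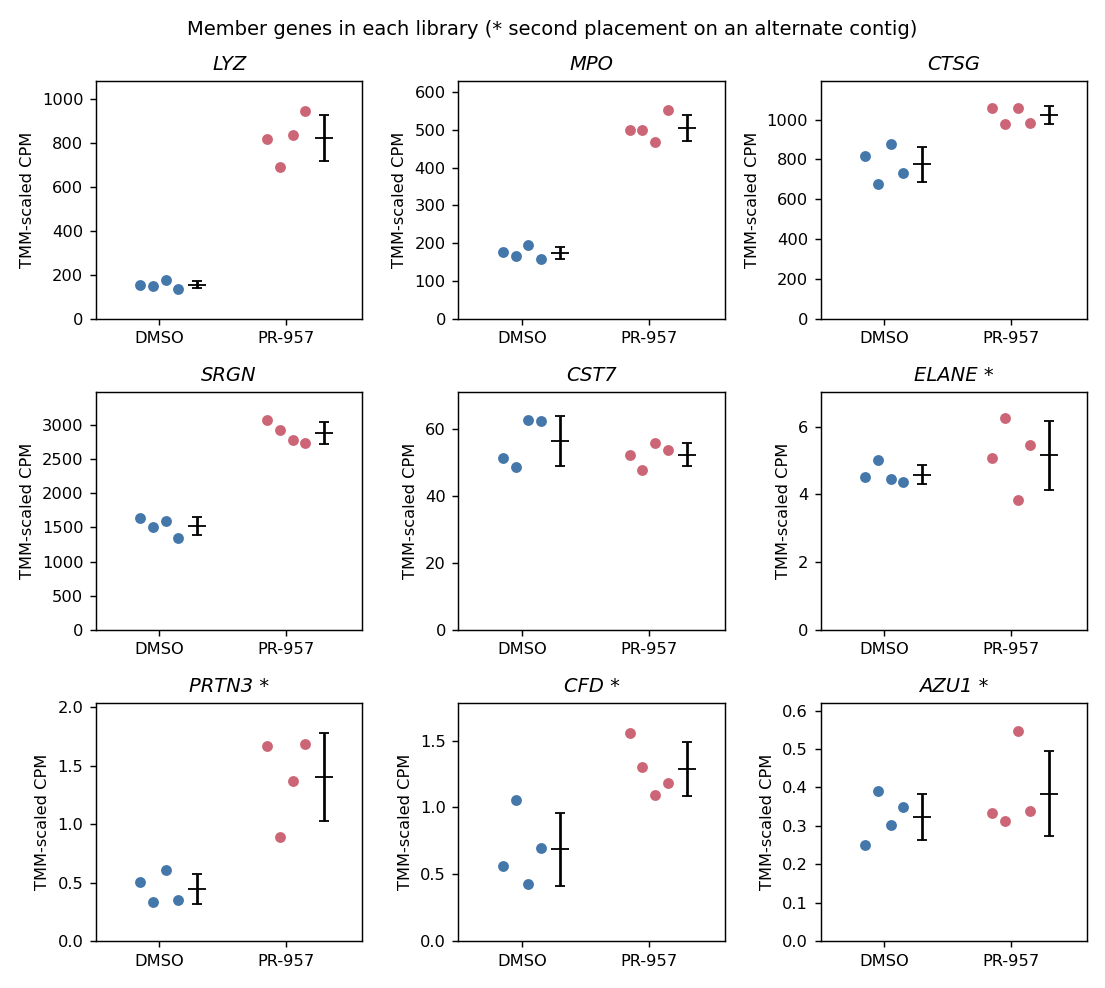
Level of each of the 9 members by library, in CPM on a linear axis that starts at 0. Points are the 4 DMSO and 4 PR-957 libraries, in replicate order from left to right, and the bar beside them gives mean ± SD. The PR-957 libraries of LYZ sit between 689 and 942 CPM and those of DMSO between 136 and 175, whereas the groups overlap for CST7, ELANE and AZU1.

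Library totals ran from 16675036 to 23111223 counts, and a count of 3, taken as the limit that a count of 0 allows, equalled 0.131 to 0.188 CPM. Intervals and limits of this kind cover counting error only. Mitochondrially encoded genes took 1.94% to 2.75% of counts in DMSO libraries and 4.15% to 5.24% in PR-957 libraries, and their part in the results was not tested. The line's labelled identity was checked with 8 myeloid markers (PTPRC, CD33, SPI1, CEBPA, FLT3, CSF3R, CSF1R and ITGAM). All 8 were tested genes, with a summed level of 1374 to 1438 CPM in DMSO and 1168 to 1229 CPM in PR-957 libraries. Of these, 2 rose, SPI1 by 0.20 and CSF3R by 0.25 on the log2 scale. Another 2 fell, PTPRC with a value of -0.66 and FLT3 with -0.98, and 4 were not called. The 5 T cell markers summed to 0.167 to 0.655 CPM in DMSO and 0.0522 to 0.228 CPM in PR-957, with CD3E and CD3G at 0. The 5 erythroid markers summed to at most 0.362 and 0.619 CPM, the 4 megakaryocyte markers to at most 2.66 and 1.98 CPM with PF4 and PPBP at 0, and the 5 B cell markers to at most 20.7 and 18.7 CPM. The 5 epithelial or fibroblast markers summed to 45.9 to 54.3 CPM in DMSO and 30.9 to 41.5 CPM in PR-957 libraries, and 2 of the 3 tested fell. In bulk RNA, fewer cells of a type and less RNA per cell cannot be told apart.

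Coordinates of the members on hg38, as deposited, showed that 4 of them are neighbours. AZU1 (chr19:827837-832018), PRTN3 (chr19:840965-848175), ELANE (chr19:850997-856250) and CFD (chr19:859664-863641) lie head to tail on the plus strand within 35805 bases. LYZ lies at chr12:69348381-69354234 (plus strand, 4 exons), MPO at chr17:58269855-58280935 (minus strand, 12 exons), CTSG at chr14:24573518-24576250 (minus strand), SRGN at chr10:69057533-69104811 (plus strand) and CST7 at chr20:24949269-24959928 (plus strand, 4 exons). Values are fragment counts over the exons of each gene, and no member's exons overlapped those of another gene.

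RefSeq promoter sequences (GRCh38.p14) were at hand for 4 of the 9 members, PRTN3, AZU1, CTSG and CFD. They are printed 5′ to 3′ on the gene's strand, because they are the start regions of 3 serine proteases called higher and of their untested inactive relative. Each run holds the 250 bases before the first base of the RefSeq model that the promoter table uses. For PRTN3 that base is 840999, and the last 34 printed bases lie inside the gene as deposited, which begins at 840965. For the other three the first base is the deposited one. Capitals mark matches, on either strand, to the C/EBP motif TTNNGCAA, the PU.1 motif GAGGAA, the RUNX motif TGNGGT and the MYB motif TAACNG, which stand for regulators of the granulocyte and monocyte program.
PRTN3 (chr19:840749-840998, plus strand): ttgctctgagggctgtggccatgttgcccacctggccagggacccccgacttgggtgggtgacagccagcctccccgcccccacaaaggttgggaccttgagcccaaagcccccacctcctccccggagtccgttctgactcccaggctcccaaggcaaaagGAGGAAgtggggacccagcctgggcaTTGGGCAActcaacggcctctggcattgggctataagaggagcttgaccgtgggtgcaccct
AZU1 (chr19:827587-827836, plus strand): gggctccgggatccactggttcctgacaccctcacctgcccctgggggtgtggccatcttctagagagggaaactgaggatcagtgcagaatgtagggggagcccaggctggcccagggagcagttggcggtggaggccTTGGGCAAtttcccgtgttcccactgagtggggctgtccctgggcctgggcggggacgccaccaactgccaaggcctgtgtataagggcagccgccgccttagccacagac
CTSG (chr14:24576251-24576500, minus strand): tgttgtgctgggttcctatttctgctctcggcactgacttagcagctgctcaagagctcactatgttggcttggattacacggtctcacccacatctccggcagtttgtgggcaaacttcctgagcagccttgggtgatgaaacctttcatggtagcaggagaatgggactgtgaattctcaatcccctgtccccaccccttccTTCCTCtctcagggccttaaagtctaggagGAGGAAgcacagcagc
CFD (chr19:859414-859663, plus strand): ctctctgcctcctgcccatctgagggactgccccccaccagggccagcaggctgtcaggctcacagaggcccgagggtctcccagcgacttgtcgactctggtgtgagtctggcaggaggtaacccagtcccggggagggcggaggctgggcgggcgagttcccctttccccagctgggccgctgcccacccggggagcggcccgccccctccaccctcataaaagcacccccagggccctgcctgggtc
PRTN3 and AZU1 held the same C/EBP letters, TTGGGCAA, at positions -62 and -111, with position 0 as the first base of that RefSeq model. PU.1 letters stood at position -88 in PRTN3 and at positions -46 (minus strand) and -16 in CTSG. A RUNX match of PRTN3 at position 2 lay just past the printed run. CFD held none of the 4 motifs. Among 35116 promoter windows of 300 bases, 10.5% held the C/EBP motif, 27.9% the PU.1 motif, 43.2% the RUNX motif and 20.8% the MYB motif. A match says only that these letters are present.

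LYZ stood at 155, 148, 175 and 136 CPM in DMSO replicates 1 to 4, and at 815, 689, 835 and 942 CPM in PR-957 replicates 1 to 4. The lowest PR-957 library was 3.95-fold above the highest DMSO library, so the groups lay far apart. The log2 fold change was 2.42 (SE 0.10, adjusted p = 7.92e-10 in edgeR's quasi-likelihood test, Benjamini-Hochberg over all genes tested), which placed LYZ at rank 11 by size among the 3045 genes called higher. By mean CPM over all genes, LYZ moved from rank 1064 in DMSO to rank 133 under PR-957. The change was of similar size within each pair of replicates, at 2.31 for replicates 1 and 2 and 2.52 for replicates 3 and 4.

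MPO, which turns hydrogen peroxide and chloride into hypochlorous acid, was the only peroxidase among the members. Its level was 177, 166, 196 and 159 CPM in DMSO replicates 1 to 4, and 500.1, 500.6, 469 and 553 CPM in PR-957 replicates 1 to 4. Again no library of one group reached the other, and the lowest PR-957 value was 2.39-fold above the highest DMSO value. The log2 fold change was 1.53 (SE 0.07, adjusted p = 1.26e-12), rank 101 among genes called higher. MPO was the steadier of the pair, with a coefficient of variation of 6.90% in PR-957 libraries against 12.7% for LYZ.

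CTSG rose 1.32-fold, against 2.90-fold for MPO. It was measured at 817, 678, 876 and 730 CPM in DMSO replicates 1 to 4, and at 1059, 978, 1060 and 985 CPM in PR-957 replicates 1 to 4. The groups did not overlap, but the gap was narrow, with the lowest PR-957 library 1.12-fold above the highest DMSO library. Its log2 fold change was 0.40 (SE 0.07, adjusted p = 0.000143), rank 1531 among genes called higher. CTSG counts per MPO count went from 4.09 to 4.61 in DMSO libraries to 1.78 to 2.26 in PR-957 libraries, without overlap.

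PRTN3 counts were 8, 6, 10 and 8 in DMSO replicates 1 to 4 and 30, 17, 30 and 30 in PR-957 replicates 1 to 4. Every PR-957 library was higher, with replicate 2 the lowest of them. The level went from 0.447 ± 0.129 to 1.40 ± 0.374 CPM (SD, n = 4), which the fit gave as 1.66 on the log2 scale (SE 0.34, adjusted p = 0.000497). Summed counts of 32 and 107 gave a ratio of 3.20 (exact binomial 95% interval 2.14 to 4.90). In DMSO, 1 library passed the filter's minimum of 0.553 CPM, against 4 in PR-957.

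ELANE, the gene between PRTN3 and CFD, had 72, 90, 74 and 100 counts in DMSO replicates 1 to 4 and 91, 120, 84 and 97 counts in PR-957 replicates 1 to 4. In CPM the groups overlapped, at 4.59 ± 0.288 in DMSO and 5.16 ± 1.01 under PR-957. The log2 fold change of 0.16 (SE 0.17, adjusted p = 0.435) did not pass the test, and the ratio of summed counts had an interval of 0.961 to 1.29. PR-957 replicate 2 was the highest and replicate 3 the lowest of all 8 libraries, and the value was 0.06 without PR-957 replicate 2 and 0.29 without PR-957 replicate 3. AZU1 had 4, 7, 5 and 8 counts in DMSO replicates 1 to 4 and 6, 6, 12 and 6 counts in PR-957 replicates 1 to 4. These overlapping values were too low to test. Their ratio was 1.19, with an interval of 0.675 to 2.14, so a 2-fold increase could not be detected or set aside at these counts.

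CFD was read at low counts in both groups. These were 9, 19, 7 and 16 in DMSO replicates 1 to 4 and 28, 25, 24 and 21 in PR-957 replicates 1 to 4, where 2 DMSO and 4 PR-957 libraries passed the filter's minimum. In CPM the lowest PR-957 library was 1.04-fold above the highest DMSO library, DMSO replicate 2. The log2 fold change was 0.88 (SE 0.31, adjusted p = 0.0268). The call did not hold in DESeq2 (0.89, adjusted p = 0.0652), nor without DMSO replicate 1 (0.80), DMSO replicate 3 (0.72), PR-957 replicate 1 (0.77) or PR-957 replicate 2 (0.87).

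A second placement limits the values of AZU1, PRTN3, ELANE and CFD. The gene models used for counting list these 4 members on chromosome 19 and also on an alternate contig of that region, 61734 bases long. All exon bases of AZU1 (907 of 907) and PRTN3 (1070) lay in 150-base windows, the read length, that occur letter for letter on the contig, as did 87.6% of the 1687 exon bases of ELANE and 93.9% of the 1212 of CFD. Fragments with more than 1 placement were not counted. The sources used here do not say whether the authors' genome file held the contig, so the true level of these 4 genes is unknown rather than low. The 5 members LYZ, MPO, CTSG, SRGN and CST7 have a single placement.

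SRGN, the granule proteoglycan, stood at 1641, 1508, 1587 and 1343 CPM in DMSO replicates 1 to 4, and at 3077, 2932, 2786 and 2733 CPM in PR-957 replicates 1 to 4. The groups lay apart by 1.67-fold at their nearest. At 0.92 on the log2 scale (SE 0.07, adjusted p = 1.79e-09), SRGN held rank 408 among genes called higher, and it moved from rank 90 to rank 29 by mean CPM. CST7 stood at 51.5, 48.6, 62.9 and 62.6 CPM in DMSO replicates 1 to 4, and at 52.2, 47.9, 55.8 and 53.8 CPM in PR-957 replicates 1 to 4. Its groups overlapped, and DMSO replicates 3 and 4 were its highest libraries. Its log2 fold change was -0.11 (SE 0.08, adjusted p = 0.300), and 0.00118 within replicates 1 and 2.

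**Figure D2:**
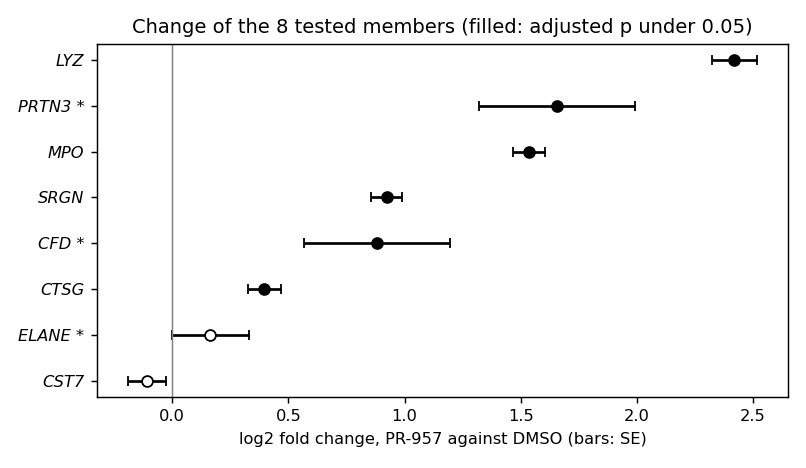
Log2 fold change of PR-957 against DMSO for the 8 tested members, with bars of 1 SE. Filled points have an adjusted p under 0.05 and an asterisk marks a second placement, and the points run from 2.42 for LYZ to -0.11 for CST7 with the widest bars on PRTN3 and CFD.

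To set LYZ apart from the granule genes without any scaling between libraries, the ratio of the LYZ count to the count of each other member was taken within a library, as log2 of the counts plus 0.5. LYZ per MPO was -0.19 ± 0.029 in DMSO and 0.69 ± 0.163 in PR-957 libraries (SD, n = 4), a difference of 0.88. LYZ per CTSG went from -2.34 to -0.32, a difference of 2.01. The difference was 0.83 against PRTN3, 1.47 against CFD, 1.49 against SRGN, 2.21 against AZU1, 2.27 against ELANE and 2.51 against CST7. All 8 differences were positive and in all 8 the groups did not overlap (two-sided exact permutation p = 0.0286, the smallest that 4 against 4 libraries allow, and 0.0286 after Benjamini-Hochberg adjustment over the 8 ratios). Since LYZ rose more than any other member, positive differences follow from the changes given above. These p-values are therefore no separate support for setting LYZ apart, and the ratios describe only the size of the difference. With the replicate numbers used as pairs, each p was 0.125, the smallest that sign flips of 4 pairs allow. Without PR-957 replicate 2 the adjusted p against PRTN3 was 0.0571 (difference 0.71), and against CFD it was 0.0571 without any 1 of PR-957 replicates 1 to 4 (1.37 to 1.57).

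**Figure D3:**
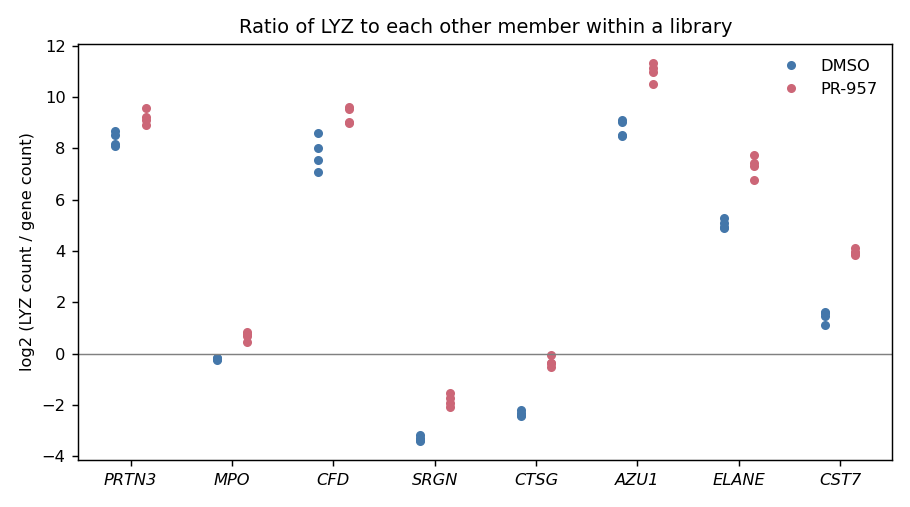
Log2 ratio of the LYZ count to the count of each other member, 1 point per library, for DMSO and PR-957. In all 8 columns the 4 PR-957 points lie above the 4 DMSO points, and the LYZ to MPO ratio crosses 0 (equal counts), from -0.19 to 0.69 on average.

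Per kilobase of exon, CTSG led in DMSO at 811 ± 92.6 CPM per kb, followed by SRGN at 544.5 ± 46.6, LYZ at 103 ± 10.9, CST7 at 63.3 ± 8.34 and MPO at 54.3 ± 5.03 (mean ± SD, n = 4). Of neighbours in this order, only CST7 and MPO overlapped. Under PR-957 the order was CTSG at 1068 ± 47.3, SRGN at 1033 ± 55.5, LYZ at 550.3 ± 69.6, MPO at 157 ± 10.9 and CST7 at 58.8 ± 3.74 CPM per kb. Here CTSG and SRGN overlapped and the others did not. Lengths were those of all merged exons of the deposited gene models, 2791 bases for SRGN and 956 for CTSG. The SRGN model begins at 69057533, whereas the GENCODE annotation begins this gene at 69088103. Which transcripts the cells used was not tested, so the order between genes depends on these models. Together these 5 members took 0.241% to 0.277% of all counts in DMSO libraries and 0.526% to 0.552% in PR-957 libraries.

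The genes whose pattern over the 8 libraries was most like that of LYZ were found by the root mean square difference of log2 CPM, centred on the DMSO mean, among 11268 genes. They were MAGEB2 (0.255), MNDA (0.294), S100A9 (0.346), ELOVL3 (0.350) and HOXD13 (0.386). The nearest, MAGEB2, went from 0.986 to 4.44 CPM, ELOVL3 from 1.08 to 4.51 CPM and HOXD13 from 1.14 to 4.54 CPM. MNDA is the myeloid cell nuclear differentiation antigen, which went from 16.4 to 68.4 CPM. S100A9 is a calcium-binding protein of neutrophils and monocytes, which went from 2.56 to 17.2 CPM. A rise like that of LYZ follows from this choice by likeness, so it is no separate result. By the same measure MPO stood at 0.630 from LYZ, and CST7 at 1.78. Nearest to MPO were the cyclin CCNA1 (0.170), ECRP (0.175), MS4A6A (0.179), the mitochondrially encoded ND5 (0.187) and the collagen chain COL4A2 (0.188), all nearer than SRGN (0.444). ECRP is close in sequence to RNASE2 and RNASE3, so counts of these 3 genes are uncertain where reads could be split.

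Other azurophil granule genes were counted from a list of 11, of which 7 were tested. Of these, 4 rose and 1 fell, with a median log2 fold change of 0.32, against 0.003 over all genes tested. Over all genes tested, 23.1% were called higher and 23.5% lower. RNASE3 and RNASE2, the ribonucleases best known from eosinophil granules, rose by 1.63 (SE 0.12) and 1.12 (SE 0.06) on the log2 scale. RNASE2 ranged from 154 to 181 CPM in DMSO and from 335 to 404 CPM in PR-957 libraries, without overlap. CD63, a membrane protein of these granules, rose by 0.52 (SE 0.07). The rise was not shared by the whole list, since 2 of the tested genes were not called. PRSS57, which had the highest mean of the list without the drug (278 ± 25.9 CPM), stayed at 271 ± 47.2 CPM with it. Its log2 fold change was -0.03 (SE 0.13). The other was CD68 at 0.32 (SE 0.14), whose value is the list's median. BPI, the bactericidal protein of these granules, was the gene that fell, with a log2 value of -0.52 (SE 0.12), from 11.7 to 13.6 CPM in DMSO to 7.93 to 11.3 CPM in PR-957 libraries. Without DMSO replicate 4, 5 genes rose and the median was 0.49. DEFA1, DEFA1B, DEFA3 and DEFA4, the neutrophil defensins, had 0 counts in every library, but they too have a second placement in the gene models.

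Of 13 genes that process and sort azurophil proteins, all tested, 3 rose and 3 fell, shares close to the 23.1% and 23.5% of all genes tested. Their median was 0.03, and -0.01 to 0.03 with 1 library left out. The endoplasmic reticulum chaperone CALR, which binds newly made MPO, rose by 0.55 (SE 0.07), and the disulfide isomerase PDIA3 rose by 0.49 (SE 0.06). IGF2R, the cation-independent mannose 6-phosphate receptor, changed by -0.32 (SE 0.06). Of 14 genes that build the chondroitin sulfate chains of SRGN, 11 were tested, 2 rose and 1 fell, with a median of -0.11. The balance of these few calls turned without DMSO replicate 4 (1 rose and 3 fell) and without PR-957 replicate 4 (2 rose and 3 fell), and 1 rose and 1 fell without any 1 of DMSO replicates 2 and 3 and PR-957 replicates 1, 2 and 3. The median was -0.04 without DMSO replicate 1. CSGALNACT1, which starts the chain, rose by 1.67 (SE 0.37) from 0.288 to 0.928 CPM and passed the filter through PR-957 libraries alone, and the sulfotransferase CHST11 changed by -0.38 (SE 0.06). CHPF2 rose by 0.19 (SE 0.07) with overlapping groups, and its call was lost without any 1 of DMSO replicates 2, 3 and 4 and PR-957 replicates 1, 2 and 3 (0.15 to 0.19).

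A list of 11 protease inhibitors was headed inhibitors of granule serine proteases. It was drawn broadly, and whether each gene's product acts on those proteases was not tested. Of the 11, 6 were tested, 4 rose and 0 fell (against 23.1% and 23.5% of all genes tested). The median was 1.05, or 0.87 without SERPINB10. SERPINB8 rose by 0.87 (SE 0.08). SERPINB10 rose by 2.92 (SE 0.56) from 0.129 ± 0.185 to 1.15 ± 0.274 CPM. It too passed the filter through PR-957 libraries alone, and its fitted value was 4.64 without DMSO replicate 4. SLPI, the secretory inhibitor of elastase and cathepsin G, rose by 1.23 (SE 0.18) from 2.13 ± 0.285 to 5.01 ± 0.707 CPM. SERPINB2 rose by 1.30 (SE 0.43), a call lost without any 1 of DMSO replicates 1, 2 and 3 and PR-957 replicates 1, 3 and 4 (1.08 to 1.51). SERPINB1, the main elastase inhibitor of the neutrophil cytosol, was at 108 ± 9.08 and 109 ± 8.74 CPM and did not pass the test. SERPINB6, at 25.9 ± 3.20 and 30.4 ± 7.73 CPM, did not pass it either.

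Among cystatins and the cathepsins that cystatin F acts on, 7 of 11 genes were tested, 4 rose and 2 fell. The shares over all genes tested were 23.1% and 23.5%. The list's median was 0.46. Without DMSO replicate 2 or PR-957 replicate 1, 2 rose. The cystatins CSTB and CST3 rose by 0.81 (SE 0.08) and 0.59 (SE 0.08), whereas CSTA changed by -0.79 (SE 0.07), from 200.2 ± 8.24 to 116 ± 14.0 CPM. The member of this family followed here, CST7, lay between them. CTSC, the cathepsin that removes the activation dipeptide of the granule proteases, rose by 0.17 (SE 0.05).

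Specific and gelatinase granule genes, which are switched on later in neutrophil development, were mostly at or near 0. Of 17, 5 were tested and 4 had 0 counts in every library. HPSE rose by 1.24 (SE 0.19) and CHI3L1 by 1.14 (SE 0.10), the latter from 58.4 to 75.4 CPM in DMSO to 125 to 158 CPM in PR-957 libraries. SLC11A1 changed by -0.72 (SE 0.28), a call lost without any 1 of DMSO replicates 2 and 3 and PR-957 replicates 2, 3 and 4 (-0.74 to -0.57). The list's median of 0.20 rested on single libraries, at 0.81 without DMSO replicate 4, 0.10 without DMSO replicate 1 and 0.06 without PR-957 replicate 3.

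The listed monocyte and macrophage genes moved in both directions. MNDA and S100A9, which were not in this list, were found above by their likeness to LYZ. Their rise follows from that choice and adds nothing to this list's result. Of 18 genes, 8 were tested, 3 rose and 3 fell (against 23.1% and 23.5% of all genes tested), with a median of 0.12. The 18 genes summed to 281 to 306 CPM in DMSO and 278 to 304 CPM in PR-957 libraries. The median was 0.06 without DMSO replicate 1 or DMSO replicate 2. CD14, the lipopolysaccharide co-receptor of monocytes, had 0 to 12 counts per library and was not tested. MS4A6A rose by 1.35 (SE 0.09), from 10.8 to 13.6 CPM in DMSO to 28.6 to 33.2 CPM. FCN1 rose by 1.38 (SE 0.46) from 0.659 to 1.76 CPM, at 8 to 54 counts per library. CD86 changed by -0.84 (SE 0.30) from 3.04 to 1.735 CPM, and both genes had overlapping groups. The FCN1 call was lost without any 1 of DMSO replicates 1, 2 and 3 and PR-957 replicates 3 and 4 (1.06 to 1.37), and the CD86 call without any 1 of DMSO replicates 3 and 4 and PR-957 replicates 2 and 3 (-0.85 to -0.49).

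Granule genes of other blood lineages were mostly at or near 0. Of 17, 5 were tested, 3 rose and 0 fell (against 23.1% and 23.5% of all genes tested), with a median of 0.84. The 17 genes summed to 21.7 to 35.3 CPM in DMSO and 35.9 to 41.6 CPM in PR-957 libraries. Without DMSO replicate 4 or PR-957 replicate 4, all 5 rose, with medians of 1.06 and 0.93. The eosinophil granule gene PRG2 rose by 0.95 (SE 0.19) from 2.43 to 4.74 CPM. The mast cell gene MS4A2 rose by 1.56 (SE 0.40) from 0.370 to 1.065 CPM, at 4 to 26 counts per library. In DMSO it ranged from 0.218 to 0.664 CPM, around the filter's minimum of 0.553 CPM. TPSAB1, also a mast cell gene, rose by 0.84 (SE 0.24) from 2.28 to 4.13 CPM, and both genes had overlapping groups. TPSAB1 has near-identical tryptase copies that can split its reads, so its value is uncertain. Of the 8 lysozyme-like genes, 6 had 0 counts throughout and only LYG1 was tested. It rose by 0.97 (SE 0.31) from 0.717 to 1.37 CPM, and 0.77 without PR-957 replicate 3 did not pass.

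Transcription factors of the granule genes had a median of -0.02, and -0.03 to 0.04 with 1 library left out. Of 12, 11 were tested, 4 rose and 3 fell, against 23.1% and 23.5% of all genes tested. CEBPE, the C/EBP factor of granulocyte maturation, rose by 1.58 (SE 0.18), from 3.56 to 5.74 CPM in DMSO to 9.81 to 16.9 CPM. CEBPB changed by -1.52 (SE 0.25), from 53.7 to 73.4 CPM in DMSO to 14.8 to 28.5 CPM. Its size was less steady, running from -2.17 to -0.98 over the 19 alternatives, though it was called in each. The value of -0.98 came from replicates 3 and 4 alone. KLF4, a monocyte factor, rose by 0.36 (SE 0.09). CEBPA (564 ± 25.6 and 555 ± 10.9 CPM) and GFI1 (191 ± 7.20 and 194 ± 24.6 CPM) did not pass the test.

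Alternative complement pathway genes, the surroundings of CFD, had a median of -0.28, which was 0.06 without DMSO replicate 4. Of 10, 7 were tested, 1 rose and 3 fell (against 23.1% and 23.5% of all genes tested), and 2 rose without DMSO replicate 4. C5 changed by -0.95 (SE 0.13) and the decay-accelerating factor CD55 by -0.91 (SE 0.06), whereas CD59, an inhibitor of the terminal complex, rose by 0.93 (SE 0.12). CD55 ranged from 48.8 to 56.9 CPM in DMSO and from 27.5 to 29.2 CPM in PR-957 libraries.

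**Figure D4:**
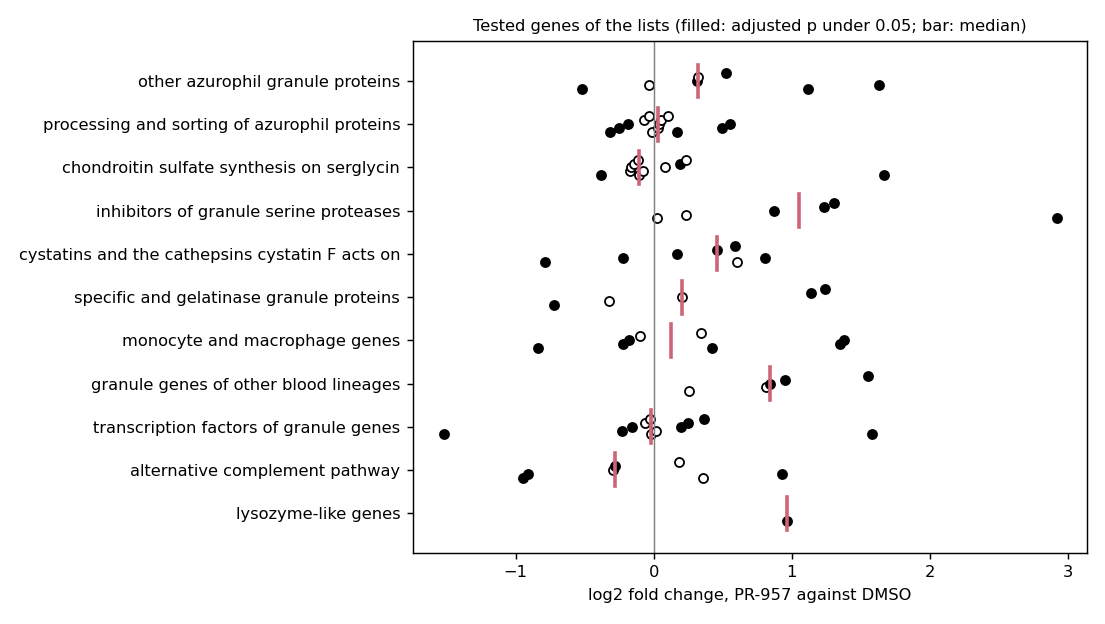
Log2 fold change of each tested gene in the 11 lists (filled, adjusted p under 0.05), with a bar at the list's median. The list headed inhibitors of granule serine proteases, which was drawn broadly, has a median of 1.05 with SERPINB10 and 0.87 without it. SERPINB10 passed the filter through PR-957 libraries alone. The lists of transcription factors, sorting genes and chondroitin sulfate enzymes lie around 0 with members on both sides.

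Around the 4 neighbours on chromosome 19, the window from 100 kb before AZU1 to 100 kb after CFD (chr19:727837-963641) held 13 other genes. Of the 6 tested, 0 were called higher and 2 lower, against 23.1% and 23.5% of all genes tested. So few genes cannot show a difference from those shares. R3HDM4 changed by -0.35 (SE 0.06, adjusted p = 0.00017) and MED16, next to CFD, by -0.27 (SE 0.07, adjusted p = 0.00485), the latter with a second placement. PALM, PTBP1, PLPPR3 and ARID3A were tested and not called. PRTN3 and CFD were the only genes called higher in this window, both with 30 or fewer counts per library. Both passed the filter largely through the PR-957 libraries, and the CFD call was lost in 7 alternatives. They therefore form no contrast with the genes around them.

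**Figure D5:**
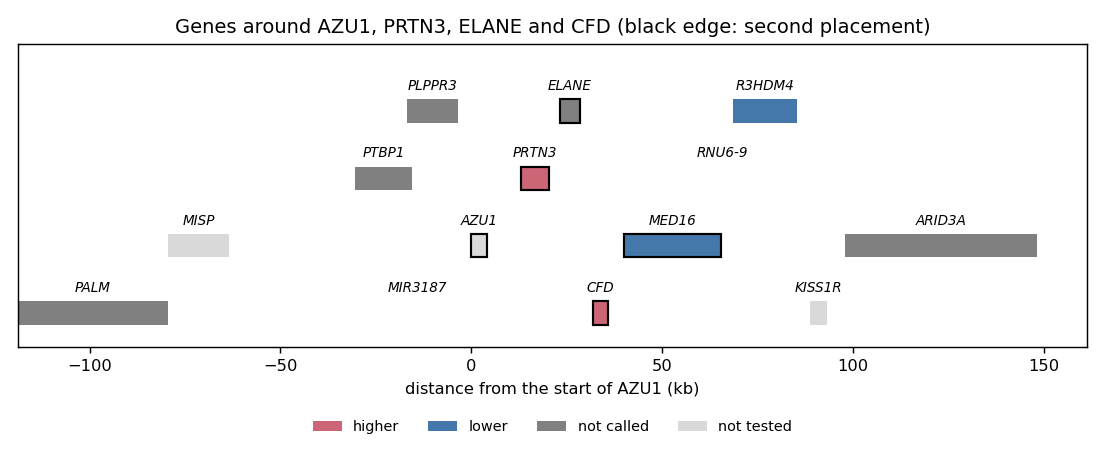
Genes with any count in the window around AZU1, PRTN3, ELANE and CFD, drawn to scale by distance from the start of AZU1 in kb, with rows used only to separate labels. Colour gives the call and a black edge marks a second placement, and the 2 genes called higher, PRTN3 and CFD, lie among genes called lower, not called or not tested.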

How the data were processed

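The authors aligned 150-base paired reads to hg38 with STAR 2.7.10a after trimming with Trimmomatic 0.39, per the labels. Per the file headers, featureCounts 2.0.1 counted fragments on the reverse strand against RefSeq gene models, with both ends mapped and multi-mapping fragments left out. The deposited values were raw counts, not normalized. The command named 16 libraries, of which 8 were in the table and 8 were not analysed here. A deposited table of the authors' own comparison (mean count, log2 fold change, standard error and p-values from DESeq2) was not used. Of the gene rows, 6 without values were left out. Groups came from sample titles.

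Groups were compared in edgeR 4.0.16 (R 4.3.3) by its two-sided quasi-likelihood test, with trimmed mean of M-values (TMM) scaling, filterByExpr, no covariate, and Benjamini-Hochberg adjustment over the 13179 genes tested. The fit was tested on simulated data. SE is the absolute log2 fold change over the square root of F. No pair of replicates agreed within sampling noise (lowest chi-square per gene 3.18). DMSO replicate 4, the library with the highest total, stood furthest off, at 9.52 to 14.2 against the other DMSO libraries. Those stood at 3.18 to 5.49 among themselves, and pairs of PR-957 libraries at 4.18 to 8.44. The reason was not tested. Deviations of same-numbered libraries from their group means correlated at 0.270, 0.303, 0.175 and 0.262, so the numbers were taken to pair the samples. The pairing comes from the data, not the labels. The members and the 11 lists were chosen with earlier results of these data known. Named genes were the 9 members, up to 3 called genes of largest absolute log2 fold change per list, called genes in the chromosome 19 window, and the 5 genes most like LYZ and most like MPO. The few further genes named were chosen with their values in view. Alternatives were DESeq2 1.42.0, voom in limma 3.58.1, other scalings and filters, a replicate block, a 2-level batch term, replicates 1 and 2 or 3 and 4 alone, and leaving out each library.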

Additional observations from a re-analysis of the deposited data

Results flagged for a closer look

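AZU1 was flagged in PR-957 replicate 3, where its level of 0.548 CPM stood apart from the other PR-957 libraries, which lay between 0.313 and 0.337 CPM. The gap to the nearest library was 0.897 of the group's range, above Dixon's 95% critical value for 4 samples. It rests on 12 counts against 6, 6 and 6. Of 18 groups checked, chance flags about 1 in 20.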

How the results depend on the processing

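Over 19 alternatives, 4681 to 6913 genes were called, 5 or 6 members were called higher and 0 lower. Log2 fold changes ran from 2.31 to 2.52 for LYZ, 1.49 to 1.62 for MPO, 0.34 to 0.48 for CTSG and 0.87 to 1.00 for SRGN, each called in all 19, and from 1.54 to 1.83 for PRTN3, called in the 18 that tested it. ELANE ran from 0.06 to 0.29 and was never called. CST7 ran from -0.20 to 0.00118, the value of opposite sign, in replicates 1 and 2 alone. CFD lost its call in 7, namely DESeq2 (0.89, adjusted p = 0.0652), replicates 1 and 2 alone (0.79), replicates 3 and 4 alone (0.97), and 4 of the fits without 1 library (0.72 to 0.87), where all 8 such fits gave 0.72 to 1.15. The replicate block called 3513 genes higher and 3400 lower, and changed no call of a member or a named list gene. For the log2 ratios of LYZ to another member, pairing by the replicate block gave p = 0.125 (exact sign flips) with differences of 0.88 (MPO), 2.27 (ELANE), 0.83 (PRTN3), 2.21 (AZU1), 2.01 (CTSG), 1.47 (CFD), 1.49 (SRGN) and 2.51 (CST7), where 4 pairs cannot reach 0.05. Leaving out 1 library gave 0.71 to 0.93 against PRTN3 and 1.23 to 1.73 against CFD. Scaling by library totals alone called 4066 genes higher and 2353 lower, against 3045 and 3098, and moved the median of all genes to 0.08. Named list genes that lost their call were CHPF2 and SLC11A1 in 10 alternatives each, SERPINB2 in 7, FCN1 and CD86 in 6 each, LYG1 in 2 and MS4A2 and KLF4 in 1 each (replicates 3 and 4 alone). The cause was not tested, apart from the fewer samples of the fits that leave libraries out. Low counts limit AZU1, PRTN3 and CFD, which had at most 30 counts per library. The part of depth, and of fragments left out for a second placement, was not tested.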
